A study of Mus musculus with 6 samples.

Results

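Ependymal cells form the lining of the central canal of the spinal cord and carry motile cilia on the surface that faces the cerebrospinal fluid (CSF). In single-nucleus RNA data of mouse lumbar cord they were taken as the nuclei with at least 500 unique molecular identifiers (UMIs, counted RNA molecules) and under 5% of UMIs from mitochondrial genes that held at least 3 of 7 cilium genes. These 7 genes were Foxj1, Dnah12, Dnah6, Cfap54, Cfap299, Spag17 and Tmem212. A nucleus was kept only with at most 1 UMI of the neuronal genes Snap25 and Rbfox3 together, and at most 1 UMI of the oligodendrocyte genes Mog, Mag and Mobp together. This gave 505 ependymal nuclei among 42628 nuclei that passed the UMI and mitochondrial limits (1.18%).

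The nuclei came from frozen lumbar cords of 110-day-old C57BL/6 mice taken as littermate pairs. Both groups carried SOD1G93A, a mutant superoxide dismutase transgene that causes motor neuron disease in mice, so no group without it was compared. One group was SOD1G93A/PHD1+/+ (3 libraries, 1 animal each) and the other SOD1G93A/PHD1-/- (3 libraries). PHD1, the product of Egln2, is an oxygen-dependent prolyl hydroxylase that marks hypoxia-inducible factor (HIF) subunits for degradation. The labels do not say how the PHD1 allele was made or in which cells it acts, and they do not tie the replicate numbers to the littermate pairs. Below, the groups are called PHD1+/+ and PHD1-/-, and values of a group are given in the order of replicates 1, 2 and 3.

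A motile cilium is built on an axoneme: a ring of doublet microtubules around a central pair, with dynein arms as motors, radial spokes and nexin links that coordinate them, and intraflagellar transport that carries parts to the tip. The forkhead factor Foxj1 and the RFX factors are known as regulators of the genes for motile cilia. Ependymal cells are also known for a shared origin with astrocytes, for junctions and transporters at the CSF surface, and, in the cord, for division after injury.

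Depth differed between the libraries. The 2 replicate 1 libraries held the ependymal nuclei with the fewest UMIs, with a PHD1+/+ median of 753 and a PHD1-/- median of 836, whereas the other 4 libraries had medians of 1580 to 1795.5. They shared 86 barcode sequences with each other and at most 5 with any other library. Of 152 barcode sequences found in more than 1 library, 0 belonged to an ependymal nucleus in more than 1 library, and 5 ependymal nuclei had a barcode that another library also held. The summed UMIs of the ependymal nuclei were 81484, 97489 and 200833 in PHD1+/+ and 91874, 33200 and 255571 in PHD1-/-. The PHD1-/- replicate 2 library stood apart, with 14 ependymal nuclei against 63 to 132 in the others.

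The 7 genes of the rule chose the nuclei, so their levels are a description and no check of the label. Levels are given as CPM (the UMIs of a gene in the ependymal nuclei of a library, divided by all their UMIs and scaled as counts per 1000000), and are compared within a gene and not between genes. Dnah12, a heavy chain of the inner dynein arms, stood at 1583, 2482 and 2151 CPM in PHD1+/+ and at 1796, 2078 and 2269 CPM in PHD1-/-. In all other nuclei it lay between 1.49 and 12.4 CPM. Cfap54, a protein of the central apparatus, measured 1068, 1498 and 1384 CPM in PHD1+/+ and 1219, 1175 and 1471 CPM in PHD1-/-, against at most 32.9 CPM elsewhere. Spag17, also of the central apparatus, gave 479, 369 and 578 CPM and then 457, 331 and 583 CPM. Tmem212, a transmembrane protein gene, gave 663, 995 and 767 CPM in PHD1+/+ and 936, 331 and 923 CPM in PHD1-/-, with the lowest value in the library with 14 nuclei.

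Foxj1, the master regulator of motile ciliogenesis, was the marker with the fewest counts. It was detected in 63 of 505 ependymal nuclei (12.5%, exact Clopper-Pearson 95% interval 9.72 to 15.7%), against 1.20% of all other nuclei, although the median depth was 1272 UMIs in the former and 2126 UMIs in the latter. Its level was 73.6, 61.5 and 174 CPM in PHD1+/+ and 32.7, 60.2 and 78.3 CPM in PHD1-/-.

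Cilium genes that the rule did not use were also counted. They belong to the same programme as the genes that chose the nuclei, so their counts describe the members and do not test the label. Of 117 further motile cilium genes found in the files, an ependymal nucleus held a median of 31 and any other nucleus a median of 2. At least 10 of them were found in 502 of the 505 members, and the poorest member held 6. Just inside the threshold, 129 members had exactly 3 rule genes (median 875 UMIs), while the 91 members with 6 and the 15 with 7 had a joint median of 1949 UMIs. Just outside, 108 nuclei within the other limits had exactly 2 rule genes, and 91 of these held at least 10 further cilium genes at a median depth of 756 UMIs. A further 154 nuclei had 3 or more rule genes but exceeded a limit, 112 of them the neuronal one and 70 the oligodendrocyte one. Of these, 148 also held at least 10 further cilium genes, at a median of 2587 UMIs, above the members' 1272. The rule therefore left out both shallow nuclei and deep nuclei with cilium genes, and doublets were not called.

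The motile cilium genes outside the rule followed the same pattern. Of 123 such genes listed, 117 were in the files, 2 had no UMI in the members and 110 had at least 10. In 97 of these 110 (88.2%) the lowest of the 6 ependymal libraries lay above the highest library of all other nuclei, and in none was it the reverse. Over all 10201 genes with at least 10 UMIs in the members, 11.3% lay above in this way and 8.02% below. Because the members were picked by genes of this programme and the minimum of 10 UMIs was set in them, these counts describe the class and test nothing.

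Among the motors, Dnah9, the heavy chain of the distal outer dynein arm, was found at 663, 851 and 906 CPM in PHD1+/+ and 773, 693 and 1111 CPM in PHD1-/-. All other nuclei had 19.7 to 36.2 CPM, a ratio of means of 28.3. Dnah11, another outer arm heavy chain, reached 542 to 1193 CPM in ependymal libraries and at most 10.4 CPM in the rest. Dnah5 ranged from 270 to 667 CPM. The list of dynein arm genes, rule genes included, had 25 of 29 measurable members above all other nuclei without overlap, including the docking and assembly genes Ccdc114, Armc4 and Dnaaf3. Dnah7a, Dnah7b and Dnah7c, near-identical copies whose reads the counting may split, had mean levels of 386, 600 and 219 CPM and are uncertain individually.

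Genes of the central pair, radial spokes and nexin links showed the same separation in 34 of 37 measurable members, rule genes included. Spag16, which scaffolds the central apparatus, measured 1006, 1405 and 1783 CPM in PHD1+/+ and 1491, 1084 and 1726 CPM in PHD1-/-. The rest of the nuclei had 4.97 to 15.8 CPM. Hydin, whose loss causes hydrocephalus in mice, gave 638, 862 and 1135 CPM in PHD1+/+ and 805, 813 and 1037 CPM in PHD1-/-. Its ratio to other nuclei was 136, and its ratio to astrocytes, defined next, was 312. The spoke head gene Rsph4a was lower in counts, at 74 to 215 CPM, and still above the 1.78 CPM maximum of the rest.

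Of the other axonemal genes, 44 of 50 separated without overlap, Cfap299 and Tmem212 among them. Enkur, a protein inside the doublet microtubules, gave 442, 441 and 593 CPM and then 512, 602 and 583 CPM. Tekt1, a filament of the doublets, had 92 to 149 CPM, whereas Tekt2 was detected at 0 to 49 CPM and overlapped the rest. Sntn, known from the ciliary tip of airway cells, had 0 to 12 CPM.

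**Figure D1:**
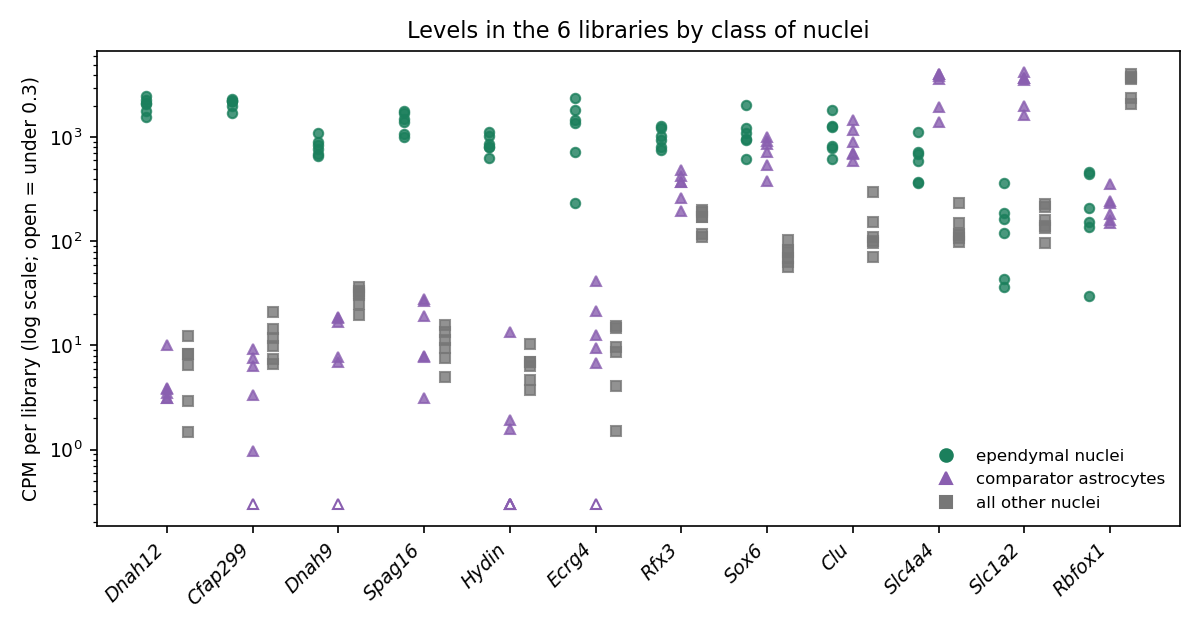
Level of 12 genes in each of the 6 libraries, in CPM on a log axis, for ependymal nuclei (circles), comparator astrocytes (triangles) and all other nuclei (squares); open symbols at the bottom stand for values under 0.3 CPM. The 5 cilium genes on the left and Ecrg4 separate from both other classes in every library, whereas Sox6 and Clu overlap with astrocytes.

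A comparator of 1325 astrocyte nuclei was chosen by at least 3 of the 8 genes Aqp4, Gja1, Ntsr2, Fgfr3, Slc4a4, Agt, Slc7a10 and Acsbg1, with the same neuronal and oligodendrocyte limits. Against these, 864 of 10201 genes (8.47%) were higher in ependymal nuclei with no overlap of libraries, and 396 (3.88%) lower. Motile cilium genes outside the rule were higher in 96 of 110. The 25 genes with the highest ratio to all other nuclei, taken outside the rule genes among the 1410 genes with at least 5 UMIs in every library, had ratios of 156 to 278. Only 11 of the 25 stood on a motile cilium list and 13 on any list used here. The remaining 12 are named by their level alone.

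Frmpd2, a PDZ-domain scaffold of cell junctions, led with a ratio of 278, at 135, 205 and 189 CPM in PHD1+/+ and 163, 211 and 172 CPM in PHD1-/-. The Frmpd2 gene lies at GRCm38 chr14:33471696-33575269. It had no UMI in the comparator astrocytes of any library. Zfp474, a zinc finger gene, had a ratio of 264, and Dthd1, a death-domain gene, a ratio of 248. Dthd1 read 430, 431 and 553 CPM in PHD1+/+ and 697, 813 and 532 CPM in PHD1-/-, with overlapping groups. Slc26a3, a chloride and bicarbonate exchanger best known from the colon, gave 196, 246 and 159 CPM and then 239, 181 and 215 CPM, with a ratio of 223 and no UMI in the comparator astrocytes. Slc26a3 was detected in 25.1% of the ependymal nuclei and 0.252% of all others.

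Several of the 25 were non-coding or of uncertain assignment. C230072F16Rik, an intergenic non-coding RNA, had 422 to 896 CPM and was detected in 63.6% of the nuclei. Gm10714 (ratio 231) and 3300002A11Rik (ratio 163) are annotated as antisense RNAs, and 3300002A11Rik overlaps Foxn3 on the other strand. Vmn2r30 belongs to the vomeronasal receptor family, whose members share sequence, and was read at 144 to 415 CPM. Tctex1d4 overlaps Plk3, and Ccdc146 overlaps Gsap and Fgl2. The sources used here do not state whether the counting used strand, so these assignments are uncertain. The other genes of the 25 were Fam216b, Ttc29, Cfap221, Ccdc180, Wdr49, Wdr63, Ccdc170, 1700028P14Rik, Lrrc36, Daw1, Ak9, Ppp1r36, Dnaaf3, Nek5 and Armc4. Of these, Dnaaf3 overlaps Tnni3 on the same strand, so its value is uncertain too.

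**Figure D2:**
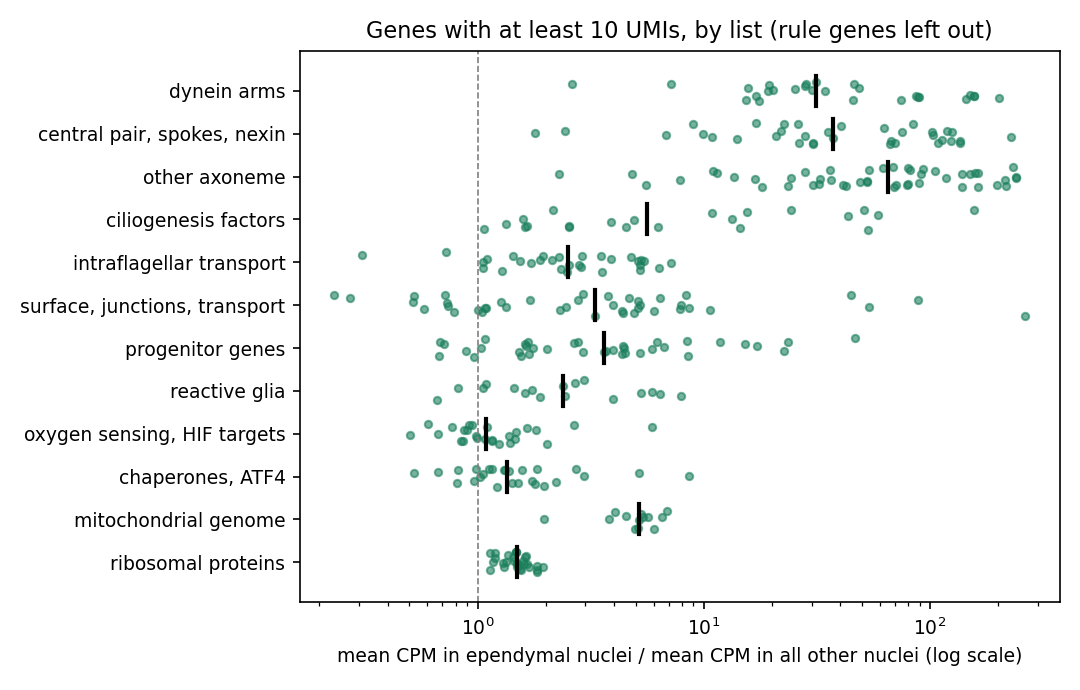
Ratio of the mean CPM in ependymal nuclei to that in all other nuclei for each gene with at least 10 UMIs in the members, by list, on a log axis; rule genes are left out, points are genes, black bars are list medians and the dashed line marks equal levels. The 3 axonemal lists lie mostly between 10 and 240, and the ribosomal protein genes between 1 and 2.

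The regulators of ciliogenesis were unequal. Rfx3, which activates cilium genes in ependymal cells, was high in all libraries, at 945, 1241 and 1041 CPM in PHD1+/+ and 762, 813 and 1279 CPM in PHD1-/-. Other nuclei had 111 to 202 CPM and comparator astrocytes a mean of 351 CPM. Rfx2 had 120 to 398 CPM, a mean ratio of 51.0 to all other nuclei. Rfx4, an RFX gene also known from astrocytes, reached a mean of 279 CPM in ependymal nuclei and 414 CPM in the astrocytes. The early multiciliation genes Ccno and Gmnc had means of 2.88 and 5.66 CPM, and Mcidas had no UMI. Of 23 measurable genes on this list 13 separated upward from all other nuclei (56.5%, against 11.3% of all genes). Among them were the kinesins Kif6, Kif9 and Kif27 and the kinases Nek5, Nek11 and Stk36.

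RFX factors bind the X-box, a pair of inverted half-sites. Promoter windows of 300 bases, 250 before and 50 after the start, were searched on both strands for the half-site GTTGCC, the spaced pair (GTTNCC, 2 bases of any kind, then GGNAAC), which holds the half-site when its first N is G, and the forkhead core TGTTTAC. Half-sites were present in 41 of the 99 motile cilium genes with a window (41.4%), against 3821 of 27025 genes in all (14.1%; 12.5% of windows) and 333 of the 1741 genes tested between genotypes (19.1%). The spaced pair was found in 4 of the 99 (4.04%) and in 0.529% of all genes. TGTTTAC was found in 5 of the 99 (5.05%), against 4.05% of all genes. Intraflagellar transport genes held the half-site in 12 of 26 and ribosomal protein genes in 1 of 22. None of the 4 rule genes with a window (Dnah12, Dnah6, Spag17 and Tmem212) held any of the 3 motifs in it. The motifs were chosen with the expression data in view, and a match is a run of letters and not a measured binding site.

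The following 60-base stretches lie upstream of the start of 7 such genes, on the strand of the gene, from RefSeq on GRCm38.p6. The first 5 genes are examples with high levels in the ependymal nuclei and not the 5 highest. Ccdc170, with a half-site and a mean of 618 CPM, was above Enkur (529 CPM) and is not shown. The last 2 genes are shown for the spaced pair, and the capitals mark the motif.
Spag16, chr1:69826840-69826899, plus strand: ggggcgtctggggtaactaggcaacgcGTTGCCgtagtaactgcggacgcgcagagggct
Hydin, chr8:110266917-110266976, plus strand: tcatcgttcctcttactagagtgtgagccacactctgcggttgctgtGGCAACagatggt
Cfap44, chr16:44394739-44394798, plus strand: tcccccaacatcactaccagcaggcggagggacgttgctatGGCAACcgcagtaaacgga
Lrriq1, chr10:103236323-103236382, minus strand: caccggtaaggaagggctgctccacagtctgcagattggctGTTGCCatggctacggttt
Enkur, chr2:21205367-21205426, minus strand: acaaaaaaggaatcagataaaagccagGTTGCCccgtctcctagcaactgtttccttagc
Iqca, chr1:90153500-90153559, minus strand: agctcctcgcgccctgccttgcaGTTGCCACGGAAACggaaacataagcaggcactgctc
Ccdc151, chr9:22002635-22002694, minus strand: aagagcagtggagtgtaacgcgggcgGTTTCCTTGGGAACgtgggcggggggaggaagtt
The half-site in capitals runs in the direction of the gene in Spag16, Lrriq1 and Enkur, and against it in Hydin and Cfap44. The Spag16 stretch also holds, in lower case just before the capitals, a half-site that runs against the gene (ggcaac). Iqca, a gene of the nexin links, and Ccdc151, a dynein docking gene, hold the spaced pair. Their mean levels in ependymal nuclei were 197 and 89.8 CPM. Cfap44 was at 664 to 1292 CPM and Lrriq1 at 602 to 1045 CPM.

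Intraflagellar transport also serves the primary cilia of other cells, and its genes differed less from other nuclei. Of 30 measurable genes, 15 lay above all other nuclei without overlap (50.0%, against 11.3% of all genes). The median ratio was 2.51 over the list, compared with 1.13 over all genes. Ift88, a core subunit, stood at 233, 513 and 363 CPM in PHD1+/+ and 457, 392 and 426 CPM in PHD1-/-, against 57.4 to 77.6 CPM in other nuclei. Dync2h1, the motor that returns cargo to the cell body, had 270 to 602 CPM against 100 to 189 CPM.

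Among genes of the surface, junctions and transport, 15 of 41 were above all other nuclei without overlap (36.6%, against 11.3% of all genes). Above the astrocytes were 6 of the 41 (8.47% of all genes were), and 7 were below them (3.88% of all genes). Ecrg4, which encodes a secreted peptide of choroid plexus and ependyma and was chosen after its values were seen, varied between libraries. It gave 233, 2400 and 1832 CPM in PHD1+/+ and 729, 1476 and 1381 CPM in PHD1-/-, with both replicate 1 libraries lowest, and 1.52 to 15.5 CPM in other nuclei. Clu, a secreted chaperone, showed the same order, at 626, 1846 and 1275 CPM and then 827, 783 and 1248 CPM, except that replicate 2 of PHD1-/- was as low as its replicate 1. Its mean was 1.19 times that of the astrocytes. Mia, a small secreted protein, ranged from 135 to 687 CPM and had a mean ratio to astrocytes of 17.7.

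Genes that astrocytes use at their membranes were detected at a lower level than in astrocytes. Gja1, the connexin of astrocyte gap junctions, had 209, 431 and 324 CPM in PHD1+/+ and 152, 331 and 344 CPM in PHD1-/-, and its mean was 0.288 of that in the comparator. The bicarbonate transporter Slc4a4 and the water channel Aqp4 had means of 0.203 and 0.207 of it. For Aqp4 this was 0.126 without the PHD1-/- replicate 2 library, in which 1 nucleus held 27 of 30 UMIs. All 3 genes helped to choose the astrocytes, so these fractions are partly fixed by that choice. Slc1a2, the main glutamate transporter of astrocytes, was not used for it and was at 0.0485 of the astrocyte mean. Dmd, the dystrophin gene, was above both, with 1777 to 2831 CPM and a mean ratio of 2.56 to the astrocytes.

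Genes known from neural progenitors separated upward from all other nuclei in 15 of 37 measurable members (40.5%, against 11.3% of all genes). From the astrocytes, 2 of 37 separated upward (8.47% of all genes did) and 5 downward (3.88% of all genes). The median ratio of the list to the astrocytes was 0.852. Fgfr3, which is on this list, helped to choose the astrocytes. Sox6 read 626, 1231 and 1095 CPM in PHD1+/+ and 958, 2048 and 943 CPM in PHD1-/-, with means of 15.2 times the other nuclei and 1.56 times the astrocytes. Nfia and Msi2 stood at 0.966 and 1.10 of the astrocyte mean. Sox2 was detected in 69 nuclei (13.7%) and Sox9 in 60 (11.9%), compared with 13.7% and 18.9% of the astrocytes. The intermediate filament gene Nes, a progenitor marker, was found in 5 nuclei (0.990%, exact 95% interval 0.322 to 2.30%). The astrocytes had 1.21% and all other nuclei 0.743%. Mki67 and Top2a, genes of dividing cells, were each found in 1 nucleus (0.198%, exact 95% interval 0.00501 to 1.10%). The astrocytes were close to this, with 0.226% for each gene. All other nuclei had 1.27% and 0.480% at their greater depth.

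Genes known from the dorsal and ventral axis of the cord were each detected in a small part of the nuclei. The position of the nuclei along this axis was not tested. Pax6 was detected in 57 nuclei (11.3%), Nkx6-1 in 35 (6.93%) and Msx1 in 19 (3.76%), and 4 nuclei held both Pax6 and Nkx6-1. All other nuclei had 1.32%, 0.396% and 0.266% for the same 3 genes, and the comparator astrocytes 17.4%, 1.36% and 2.49%. Nkx6-2 was detected in 12 nuclei (2.38%), against 7.09% of all other nuclei and 2.34% of the astrocytes. Shh, expressed by floor plate cells of the embryo, had 1 UMI-positive nucleus. Of the Hox genes, which record the level of the body axis, Hoxa7 separated from the rest, at 60.2 to 258 CPM against 41.1 to 58.0 CPM, as did Hoxd11. These 2 of 19 (10.5%) are close to the 11.3% of all genes that lay above all other nuclei.

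Transcripts of the mitochondrial genome took a larger part of the UMIs than in all other nuclei summed. Summed over its 13 genes they made 9904, 10894 and 12657 CPM in PHD1+/+ and 11679, 9669 and 14681 CPM in PHD1-/-. All other nuclei had 1405 to 5639 CPM, highest in the PHD1+/+ replicate 1 library. The median ratio to all other nuclei was 5.19 over the list, and 8 of 13 genes separated from them without overlap (61.5%, against 11.3% of all genes). Comparator astrocytes had 1831 to 10519 CPM, which overlapped the ependymal libraries. Above the astrocytes without overlap were 2 of the 13 genes (8.47% of all genes were). mt-Co3, a subunit of cytochrome oxidase, gave 2994, 2400 and 2719 CPM and then 2765, 2078 and 3408 CPM. Ribosomal protein genes, by contrast, separated from all other nuclei in 0 of 30, with a median ratio of 1.49. Whether the mitochondrial RNA lay in or beside the nuclei was not tested.

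Markers of other cell types were not at 0, and the sums of several overlapped those of all other nuclei. The rule limited Mog, Mag and Mobp, and Snap25 and Rbfox3, so low sums of oligodendrocyte and neuronal markers are partly fixed by the choice of nuclei. Without those genes, 9 oligodendrocyte markers summed to 884 to 2467 CPM, and to 3768 to 5779 CPM in all other nuclei. The 10 remaining neuronal markers summed to 544 to 1375 CPM, and to 4675 to 8079 CPM in all other nuclei. Both sums were highest in the PHD1+/+ replicate 1 library. Rbfox1, a splicing factor of neurons, had 30.1 to 468 CPM against a mean of 3274 CPM in the rest. Microglial markers summed to 287 to 638 CPM against 507 to 819 CPM. Endothelial, mural and fibroblast markers summed to at most 245, 85.9 and 687 CPM, against at most 357, 146 and 1167 CPM. Astrocyte markers summed to 1023 to 3343 CPM against 1260 to 1858 CPM. Markers of oligodendrocyte precursors summed to 109 to 2440 CPM against 791 to 1218 CPM. Both were highest in PHD1-/- replicate 2. Schwann cell markers summed to 105 to 749 CPM against 178 to 890 CPM, and 1 nucleus of PHD1+/+ replicate 1 held 35 of their UMIs.

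Choroid plexus epithelium also carries cilia, but 5 of the 8 genes listed for it, Ttr, Kl, Clic6, Otx2 and Slc4a5, had no UMI in the 505 nuclei. An absence from 505 nuclei allows a share of detecting nuclei of up to 0.594%. The rest of that list, Folr1, Htr2c and Kcnj13, had UMIs. Of the 2 listed genes with at least 10 UMIs, 1 lay above all other nuclei without overlap and 1 below. Folr1, a folate receptor that was on the choroid plexus list, was nevertheless present at 36.8, 103 and 44.8 CPM in PHD1+/+ and 54.4, 60.2 and 82.2 CPM in PHD1-/-, with at most 0.928 CPM in other nuclei. It was detected in 41 nuclei (8.12%) against 0.0997% of the rest. Pkd2l1, the channel of CSF-contacting neurons that sit among ependymal cells, was detected in 0.594% of the nuclei. Cx3cr1, a microglial receptor, gave 24.5, 123 and 164 CPM and then 32.7, 30.1 and 125 CPM, although the microglial receptor Csf1r was seen in 7 nuclei only (1.39%). The annotated Cx3cr1 gene (GRCm38 chr9:119901616-120069879, minus strand) overlaps on the other strand Ttc21a, an intraflagellar transport gene at 423 to 574 CPM in these nuclei, so this value is uncertain.

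The share of ependymal nuclei was compared between genotypes over libraries. In PHD1+/+ it was 0.983, 0.786 and 2.09% (90 of 9155, 63 of 8016 and 112 of 5361 nuclei), and in PHD1-/- 1.43, 0.189 and 2.16% (94 of 6588, 14 of 7398 and 132 of 6110). The exact Clopper-Pearson 95% intervals were 0.791 to 1.21, 0.604 to 1.00 and 1.72 to 2.51% in the first group. They were 1.15 to 1.74, 0.103 to 0.317 and 1.81 to 2.56% in the second, and cover counting error only. Libraries within a group thus differed by more than counting error, and the groups overlapped. The means were 1.29% ± 0.702 (SD, n = 3) and 1.26% ± 0.996 (SD, n = 3), a difference of -0.0272 percentage points (exact two-sided permutation test, p = 1.0; the smallest p possible with 3 against 3 is 0.1). Without the PHD1-/- replicate 2 library the difference was 0.508 points, and without the PHD1+/+ replicate 3 library 0.374 points.

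The shares of both replicate 1 libraries were lower among deeper nuclei. Leaving out nuclei under 1000 UMIs gave 0.314, 0.729 and 2.08% in PHD1+/+ and 0.548, 0.205 and 2.10% in PHD1-/-. When the nuclei kept were also thinned to 1000 UMIs each, the shares were 0.245, 0.715 and 2.16% in PHD1+/+ and 0.548, 0.176 and 2.16% in PHD1-/-. Both settings left out 3431, 879 and 400 nuclei in the first group and 2392, 575 and 499 in the second. The thinned shares of both replicate 1 libraries lay below the intervals of their unthinned shares, while replicates 2 and 3 of both groups stayed within theirs. Within the deeper libraries, replicates 2 and 3 of both groups, the difference was -0.263 points, and between the 2 replicate 1 libraries it was 0.444 points. How much of the canal each dissected cord held was not tested.

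**Figure D3:**
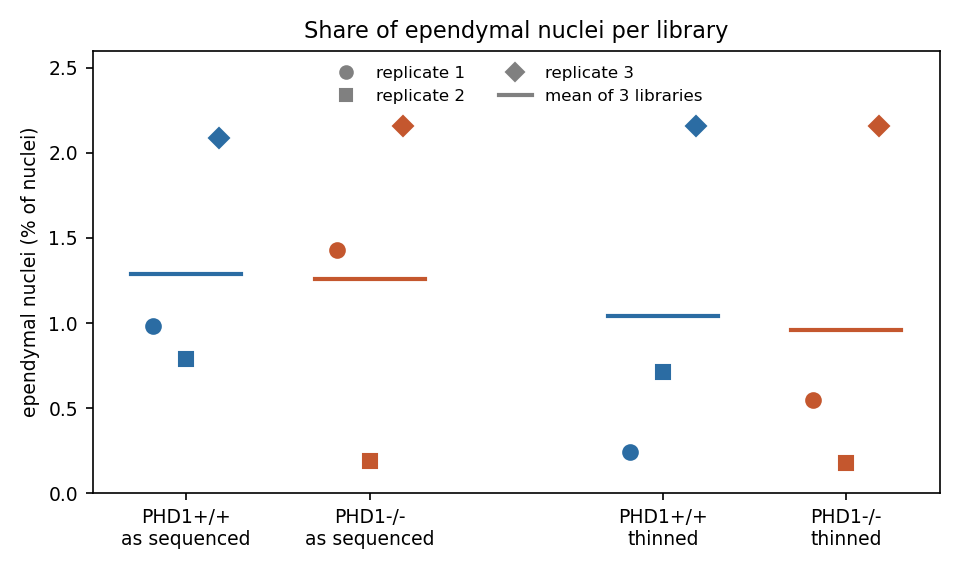
Ependymal nuclei as a percentage of nuclei in each library by genotype, as sequenced (left) and with every nucleus thinned to 1000 UMIs (right); symbols are replicates and lines the means of 3 libraries. The replicate 3 libraries of both groups lie near 2.1 to 2.2%, the PHD1-/- replicate 2 library at 0.189%, and the means of the groups almost coincide.

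The targeted gene was examined next. Egln2 had 2, 2 and 3 UMIs in the ependymal nuclei of the PHD1+/+ libraries and 0, 0 and 2 UMIs in those of PHD1-/-. This is 24.5, 20.5 and 14.9 CPM against 0, 0 and 7.83 CPM, and 0 UMIs allow up to 32.7 CPM in replicate 1 and 90.4 CPM in replicate 2. The difference was -17.4 CPM (exact two-sided permutation test, p = 0.1, the smallest possible), and all PHD1-/- libraries lay below all PHD1+/+ libraries. With 3 libraries against 3 this test cannot reach 0.05, so it cannot decide, and each value rests on 0 to 3 UMIs. Among nuclei with at least 1000 UMIs the difference was -10.0 CPM (exact permutation p = 0.4), and with at least 2 rule genes it was -11.1 CPM (exact permutation p = 0.2). In all other nuclei Egln2 was 29.7, 18.6 and 16.3 CPM in PHD1+/+ and 9.71, 8.97 and 10.1 CPM in PHD1-/-. That order matches the labels, with RNA remaining in each PHD1-/- library. The labels do not say whether the counted part of the transcript lies outside the deletion.

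Sod1 was the other gene that the genotypes name. It gave 4688, 851 and 1051 CPM in PHD1+/+ and 3048, 783 and 935 CPM in PHD1-/-, with both replicate 1 libraries far above the others. In all other nuclei both replicate 1 libraries were also far above the others, at 3599, 409 and 549 CPM and then 1728, 483 and 458 CPM. How much of the transgene's RNA was counted on the mouse gene is unknown. The log2 fold change was -0.53 (SE 0.74) in edgeR, 0.90 without the PHD1+/+ replicate 1 library and -1.52 without the PHD1-/- replicate 1 library.

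Between genotypes, no gene in ependymal nuclei passed the test. Of 2219 genes with enough UMIs to test, edgeR's quasi-likelihood test called 0 (0%) at a Benjamini-Hochberg adjusted p under 0.05, and the smallest adjusted p was 0.999. Unadjusted, 38 genes (1.71%) had a p under 0.05, and DESeq2 called 0 with 14 unadjusted. These counts depended on the model. With the replicate number as a block, edgeR also called 0, but 122 genes (5.5%) had an unadjusted p under 0.05. The smallest edgeR adjusted p was then 0.292. In 74 genes (3.33%) all PHD1-/- libraries lay above all PHD1+/+ libraries, and in 56 (2.52%) below.

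The motile cilium genes outside the rule gave small differences between genotypes. Of the 76 tested, 47 had a positive and 29 a negative log2 fold change, with a median of 0.04 against -0.01 over all tested genes and a range from -0.39 to 0.72. None of the 76 had an unadjusted p under 0.05 (1.71% of all tested genes had), and in none did the groups separate. Spag16 had a log2 fold change of 0.04 (SE 0.24), Hydin of 0.00 (SE 0.22) and Dnah9 of 0.09 (SE 0.22). Among the ciliogenesis factors Rfx3 had -0.19 (SE 0.23), Rfx4 -0.57 (SE 0.30) and Kif27 -0.72 (SE 0.43), with a list median of -0.19 over 9 genes. That median moved to -0.12 when PHD1+/+ replicate 2 was left out. It was -0.31 when PHD1-/- replicate 1 was left out, and -0.45 for replicate 3 of that group. In 1 of the 9, the basal body gene Cep164, all PHD1-/- libraries lay below all PHD1+/+ libraries, as in 2.52% of all tested genes; its log2 fold change was -0.60 (SE 0.45). The 13 tested intraflagellar transport genes had a median of 0.09, which was 0.11 to 0.19 with each library left out and 0.01 in the 4 deeper libraries.

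Chaperone and stress genes had negative values without passing the test. All 11 tested members had a log2 fold change under 0, as had 1135 of all 2219 tested genes, and their median was -0.34. Of the 11, 2 had an unadjusted p under 0.05 (1.71% of all tested genes had), and the same 2 had all PHD1-/- libraries below all PHD1+/+ libraries (2.52% of all tested genes). Oligodendrocyte markers differed in the same direction: 4 of 4 tested were negative, with a median of -0.61. Summed over all 12 of these markers, 0 of them undetected, the level was 2761, 1631 and 1175 CPM in PHD1+/+ and 1861, 1446 and 994 CPM in PHD1-/-. Their part in the chaperone values was not tested. Hsp90ab1, a cytosolic chaperone, stood at 565, 472 and 508 CPM in PHD1+/+ and 348, 181 and 321 CPM in PHD1-/-, with no overlap between the groups. Its log2 fold change was -0.82 (SE 0.31, edgeR adjusted p 0.999). Hsp90aa1 measured 724, 574 and 757 CPM and then 468, 331 and 536 CPM, also without overlap, with a log2 fold change of -0.61 (SE 0.27, edgeR adjusted p 0.999). In all other nuclei Hsp90aa1 was 381, 256 and 270 CPM in PHD1+/+ and 221, 231 and 173 CPM in PHD1-/-, again all lower. The class-by-genotype term, which asks whether the difference itself was unlike that in other nuclei, was 0.04 (SE 0.33) for Hsp90aa1 and -0.17 (SE 0.36) for Hsp90ab1, and its median over the 11 genes was 0.00. In the 4 deeper libraries 12 of the 14 then tested members were negative, with a median of -0.19.

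Other lists followed the libraries. Of 25 tested ribosomal protein genes 22 were negative, with a median of -0.39, but the median was 0.04 without the PHD1+/+ replicate 1 library, in which these genes were highest, -0.69 without PHD1+/+ replicate 3 and -0.75 without PHD1-/- replicate 1. The mitochondrial genome had 7 of 10 positive and a median of 0.16, and -0.04 without PHD1-/- replicate 3. Reactive glia genes had 6 of 7 negative and a median of -0.32, and 0.08 without PHD1+/+ replicate 1. Of the oxygen sensing and HIF target list, 6 of 37 genes could be tested and 4 were negative, with a median of -0.28. With each library left out this median ranged from -0.45 to 0.03, the latter without PHD1+/+ replicate 1. It was -0.08 in the 4 deeper libraries. In 1 of the 6, the glycolytic gene Gapdh, all PHD1-/- libraries lay below all PHD1+/+ libraries (2.52% of all tested genes did). It had 295, 133 and 154 CPM and then 131, 60.2 and 129 CPM, where the closest libraries of the groups were almost equal. Its log2 fold change was -0.74 (SE 0.47). The symbol Aldoa belongs to 2 gene IDs, and the 1 counted here had overlapping groups and a log2 fold change of -0.81 (SE 0.59). Slc2a1, the glucose transporter that HIF induces, was at 110, 297 and 189 CPM and then 141, 151 and 192 CPM, with a log2 fold change of -0.28 (SE 0.36). Hif1a and Epas1 had 36 and 11 UMIs in all and could not be tested. None of the 44 interferon and antigen presentation genes had enough UMIs for the test, and 3 had none.

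**Figure D4:**
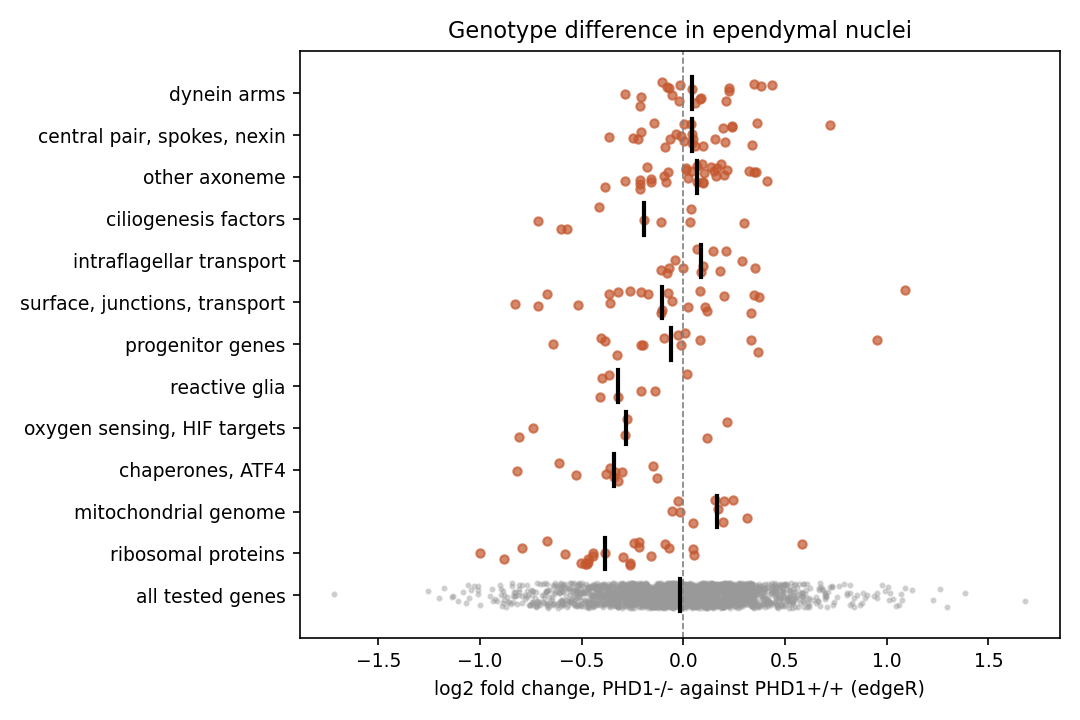
The edgeR log2 fold change of PHD1-/- against PHD1+/+ in ependymal nuclei for each tested gene, by list, with all tested genes at the bottom and rule genes left out of the lists; points are genes and black bars are medians. The axonemal lists centre near 0, the chaperone and ribosomal lists lie mostly left of 0, and 0 of 2219 genes passed the test.

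The genes with the smallest p-values are named by rank and did not pass the adjustment. On the higher side were Gm16499, Limk2, Usp37, Zfc3h1, Gpc6, Hs6st3, Arhgap5, Lcorl, Nebl and Exoc3, with log2 fold changes from 0.65 to 1.68. Usp37, a deubiquitinase, gave 61.4, 123 and 129 CPM in PHD1+/+ and 185, 241 and 239 CPM in PHD1-/-, a log2 fold change of 1.01 (SE 0.33). Other nuclei did not show this order, at 77.4, 101 and 105 CPM and then 92.1, 96.2 and 110 CPM, and the class-by-genotype term was 1.02 (SE 0.32, edgeR adjusted p 1.00). Arhgap5, a GTPase-activating protein gene, had 319, 482 and 448 CPM and then 620, 753 and 638 CPM. Gpc6, a glypican, and Hs6st3, a heparan sulfate sulfotransferase, had log2 fold changes of 0.95 (SE 0.32) and 1.13 (SE 0.38). Gm16499 is annotated as antisense, shares its name with another gene model and overlaps Tril, so its value is uncertain. Usp37 overlaps Vil1, Cnot9 and Plcd4 on the other strand, so its value is uncertain as well.

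On the lower side were Por, Grb14, Ndufb9, Hsp90ab1, Ywhag, Atp5a1, Zwint, Nedd4l, Msrb3 and Atp6v1b2, with values from -1.72 to -0.67. Grb14, an adaptor of the insulin receptor, read 184, 349 and 149 CPM in PHD1+/+ and 109, 30.1 and 106 CPM in PHD1-/-. Nedd4l, a ubiquitin ligase of ion channels, gave 417, 451 and 583 CPM and then 239, 241 and 415 CPM, where the closest libraries of the groups were almost equal. Ndufb9 and Atp5a1 belong to the respiratory chain and Atp6v1b2 to the vacuolar proton pump. Ndufb9 had 245, 113 and 124 CPM and then 87.1, 0 and 39.1 CPM. The class-by-genotype fit called 0 of 2219 genes in edgeR (0%), with 27 (1.22%) at an unadjusted p under 0.05.

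In the PHD1-/- replicate 2 library, single nuclei set the level of several glial genes. One nucleus of 5270 UMIs, with 4 rule genes and 26 further cilium genes, held 24 of the 25 Gfap UMIs, 27 of 30 of Aqp4, 45 of 47 of Chl1 and all 7 of C3. Gfap, the filament of reactive astrocytes, was 753 CPM with this nucleus and 35.8 CPM without it, while the other libraries had 20.5 to 233 CPM. A second nucleus, of 6091 UMIs with 5 rule genes and 43 further cilium genes, held 41 of 43 Tnr UMIs and 20 of 21 of Vcan, genes of oligodendrocyte precursors. Tnr was 1295 CPM with it and 73.8 CPM without it, against 0 to 59.8 CPM in the other libraries. In the PHD1+/+ replicate 1 library a nucleus of 1524 UMIs, with 3 rule genes and 8 further cilium genes, held 16 of the 22 UMIs of Lhfpl3, a further precursor gene. When genes with few counts were not filtered out, edgeR called 2 of 17408 genes, and these were Tnr and Chl1. Among all members Gfap was detected in 40 nuclei (7.92%), compared with 55.1% of the comparator astrocytes and 12.1% of all other nuclei.

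**Figure D5:**
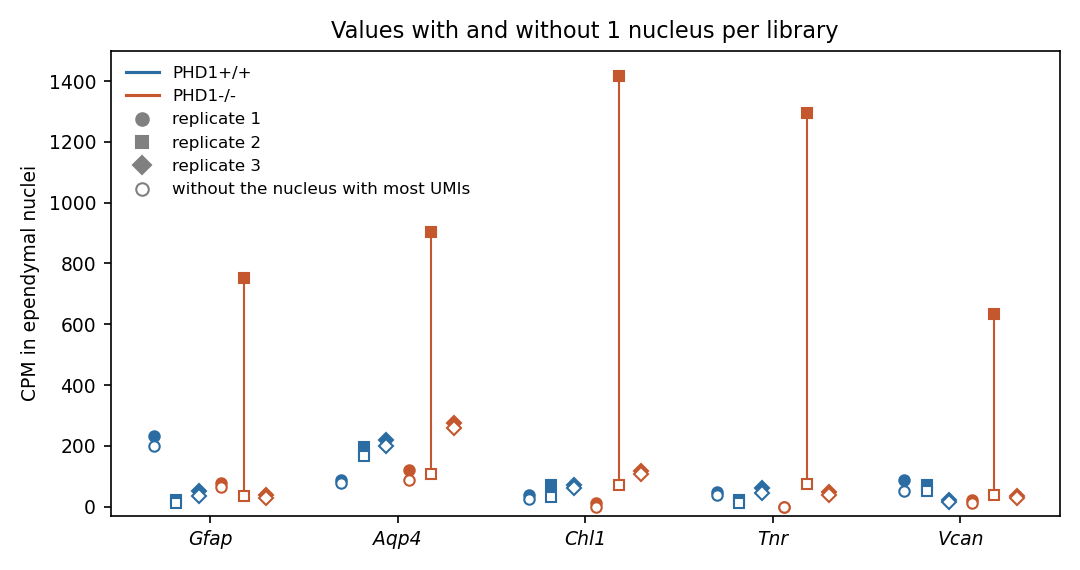
CPM of 5 genes in the ependymal nuclei of each library (filled symbols) and without the nucleus that held the most UMIs of that gene (open symbols), with a line joining the 2 values; colours are genotypes and symbols replicates. The PHD1-/- replicate 2 library stands apart with filled symbols from 633 to 1416 CPM, and open symbols from 35.8 to 107 CPM.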

How the data were processed

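Nuclei were profiled with 10x Genomics 3' chemistry, per the labels' protocols, on 6 libraries. The authors deposited matrices of UMI counts per gene and barcode, whose headers carry Cell Ranger version 5.0.1. Version 5.0.2, together with Scanpy 1.8.1 and the mm10 build, stands in the submitters' processing notes. The members and lists were chosen with earlier results of these data known. Counts of the members were summed per library; edgeR 4.0.16 in R 4.3.3 (TMM, filterByExpr, quasi-likelihood test, Benjamini-Hochberg threshold 0.05) compared the 3 libraries of each group, SE being the log2 fold change over the root of F. The class-by-genotype fit added the sum of all other nuclei with a term per library. DESeq2 1.42.0 was an alternative. The levels of ependymal against other nuclei received no test. Named genes were the 10 smallest p-values per direction, the 25 highest ratios, and the 4 tested members of highest level in each list; others were chosen after their values were seen. Doublets were not called. Gene positions are from GENCODE on GRCm38, in which 32235 of 32285 gene IDs were found. Scripts were tested on simulated data. Antibody tag features held 0 UMIs and were not used.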

Additional observations from a re-analysis of the deposited data

How the results depend on the processing

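The count of called genes was 0 with DESeq2, DESeq2 size factors, a lower count minimum, a minimum of 1000 UMIs, other numbers of rule genes, no limits on other cell types, equal numbers of members, the replicates 2 and 3 only, and each library left out (range 0 to 0, also for the class-by-genotype fit). It was 2 without the filter on low counts. Leaving out each library moved the share difference between -0.478 and 0.508 points, with reversals to 0.374 without PHD1+/+ replicate 3 and 0.508 without PHD1-/- replicate 2. The Egln2 difference then ranged from -20.0 to -15.1 CPM. The log2 fold change of Sod1 ranged from -1.52 without PHD1-/- replicate 1 to 0.90 without PHD1+/+ replicate 1, where it reversed. With the replicate number as a block, edgeR called 0 genes, 122 had an unadjusted p under 0.05 and the smallest adjusted p was 0.292; the paired share difference was -0.0272 points and the Egln2 difference -17.4 CPM (exact paired permutation tests, p = 1.0 and 0.25). Same-numbered libraries correlated at 0.485, 0.0743 and 0.313 in their deviations from the group means, and PHD1+/+ replicate 2 correlated better with PHD1-/- replicate 3 (0.230), so the numbers were not taken as pairs. The number of nuclei limits PHD1-/- replicate 2, with 14 ependymal nuclei, and the UMIs per nucleus limit both replicate 1 libraries.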
